A study of Mus musculus with 5 samples.

Results

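The clustered protocadherins are 57 protein-coding genes of mouse chromosome 18, taken here from 21887 protein-coding genes of the RefSeq annotation of mm10 (GRCm38.p6) as all those on that chromosome whose symbol begins with Pcdha, Pcdhb or Pcdhg. There were 14 alpha, 22 beta and 21 gamma genes. They were followed in a window from 100 kb before the first gene, Pcdha1, to 100 kb past the shared end of the gamma genes (36830285 to 37941873). The window held 101 regions with a peak in at least 1 library, of 231612 over all chromosomes. Chromatin accessibility had been profiled by ATAC-seq, in which a transposase cuts open DNA, in CD1 mouse embryos with no allele or treatment named. The ectoderm of the distal forelimb, freed from mesoderm with trypsin, gave 2 libraries at stage E14.5, and distal hindlimb ectoderm gave another 2. Forebrain, digested with collagenase, gave 1 library at stage E13.5, so tissue, stage and digestion cannot be told apart. Nothing in the labels says that replicates came from separate embryos, and in bulk tissue fewer cells with an open site and a less open site in each cell cannot be told apart.

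Clustered protocadherins are cell-surface adhesion proteins that give single neurons distinct identities, by which branches of the same neuron recognise and avoid each other. In the alpha and gamma groups each gene has its own promoter and variable first exon, spliced to constant exons shared by the group, whereas beta genes are encoded by single exons. Most of these promoters are alternate ones, of which a neuron picks a few at random, with CTCF and cohesin bringing the chosen promoter to a distant enhancer. The C-type genes, Pcdhac1, Pcdhac2, Pcdhgc3, Pcdhgc4 and Pcdhgc5, are instead used broadly by many neurons. Enhancers of the alpha genes are known past Pcdhac2 and between the alpha and beta groups, and a control region for the beta genes is known past the gamma genes.

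The libraries differed in length and no read totals were used here. They held 73830 and 73718 peaks in forelimb replicates 1 and 2, 51510 and 78147 in the hindlimb replicates, and 120297 in forebrain. Each peak has a summit, a fold enrichment over local background and a p-value, all given by the authors for that peak in its own list. The strength of a peak is given below as its percentile by −log10 p within its own list, and as the reads at its summit, solved from fold and p. Background coverage solved in the same way was 3.1 to 4.36 reads in ectoderm and 4.62 in forebrain. As a check of the labels, a peak at either end was found for 9, 10, 6 and 9 of 10 epidermal markers in the ectoderm libraries and for 5 in forebrain. Over all 21887 genes the shares were 59.8%, 57.3%, 51.2% and 59.3% in ectoderm and 63.8% in forebrain, so counts near these shares mark no tissue. Krt5 and Krt14, the basal keratins, had one in 3 ectoderm libraries and none in forebrain. Forebrain progenitor markers had one for 3, 2, 3 and 3 of 9 genes in ectoderm and for all 9 in forebrain. For neuron markers the counts were 3, 3, 1 and 1 of 8 in ectoderm and 8 in forebrain. Those for Schwann cells and melanocytes, which share a neural crest origin, were 3, 3, 2 and 3 of 5 against 4, with the defining Sox10 at none in any library. Markers of limb mesenchyme counted 2, 3, 3 and 4 of 7 against 5, and those of endothelium and blood 3 of 6 in each ectoderm library against 4. The part of other cell types in the results below was not tested.

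The beta genes, which span 256.4 kb, held no forebrain peak at all. In ectoderm they held 7 peaks in each forelimb library, 4 in hindlimb replicate 1 and 3 in hindlimb replicate 2. The start peak of Pcdhb1 is counted here in hindlimb replicate 2 but not in forelimb, where its summits lay 61 and 60 bp before the part. With parts that begin 1 kb earlier the counts were 8 and 8 in forelimb and 4 and 3 in hindlimb. Forebrain had the longest list, with 4.42 peaks per 100 kb over all chromosomes against 1.89 to 2.87 in the ectoderm libraries. Per 100 kb of the beta part there were 2.73 and 2.73 peaks in forelimb, 1.56 and 1.17 in hindlimb, with 0 in forebrain. Relative to its whole list, a forelimb library thus had 1.01 times the density in the beta part, while hindlimb replicates 1 and 2 had 0.824 and 0.408 times. Between the forebrain summit at 37218322, which lies between the alpha and beta groups, and that at 37644242, at the neighbouring gene Taf7, 425.9 kb passed without a forebrain peak. The longest such stretch of the window was 85.9 and 141.3 kb in forelimb, and 100.8 and 176.7 kb in hindlimb. In the whole forebrain list 155 of 120276 intervals between neighbouring summits, or 0.129%, were as long as its stretch, and in the ectoderm lists 8.44%, 2.83%, 12% and 1.87% were as long as theirs. Each stretch was picked as the longest of the window, so these shares describe single intervals and are no measure of chance. The ectoderm peaks inside the beta part were weak. Those with a −log10 q of at least 5 numbered 1 and 0 in forelimb and 0 and 1 in hindlimb, beside 0 in forebrain. Left out of these are the forelimb peaks at the start of Pcdhb1, just before the part, with a −log10 q of 6.87 and 8.29.

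Of the 3 gene groups, gamma was the most densely marked in every library, and there forebrain led in number. Over their 180.1 kb forebrain had 21 peaks, against 13 and 11 in the forelimb libraries and 8 and 10 in those of hindlimb. That is 11.7 peaks per 100 kb in forebrain, 7.22 and 6.11 in forelimb and 4.44 and 5.55 in hindlimb. Divided by the density of each whole list, the values were 2.64 in forebrain, 2.66 and 2.26 in forelimb and 2.35 and 1.93 in hindlimb, so that forebrain fell inside the range of ectoderm on that scale. With lists of equal length the gamma peaks numbered 9 in forebrain, 8 and 9 in forelimb and 8 and 9 in hindlimb. The lead of forebrain in the full lists was thus not seen with lists of equal length.

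The alpha genes, over 258.6 kb, were marked less densely than the whole list in forebrain and more densely in ectoderm. They held 7 forebrain peaks, 10 in each forelimb library and 6 and 8 in hindlimb. The density was 0.613 times that of the whole list in forebrain, and 1.43, 1.43, 1.23 and 1.08 times in forelimb and hindlimb replicates 1 and 2. The forebrain peaks were few but high in their list, with a median percentile of 79.5. In ectoderm the medians were 47.5 and 39.1 in forelimb and 39.3 and 44.3 in hindlimb. Of the 7 forebrain peaks, 4 were above the 75th percentile, against 2 of 10 in forelimb replicate 1 and 0 in the other ectoderm libraries.

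**Figure D1:**
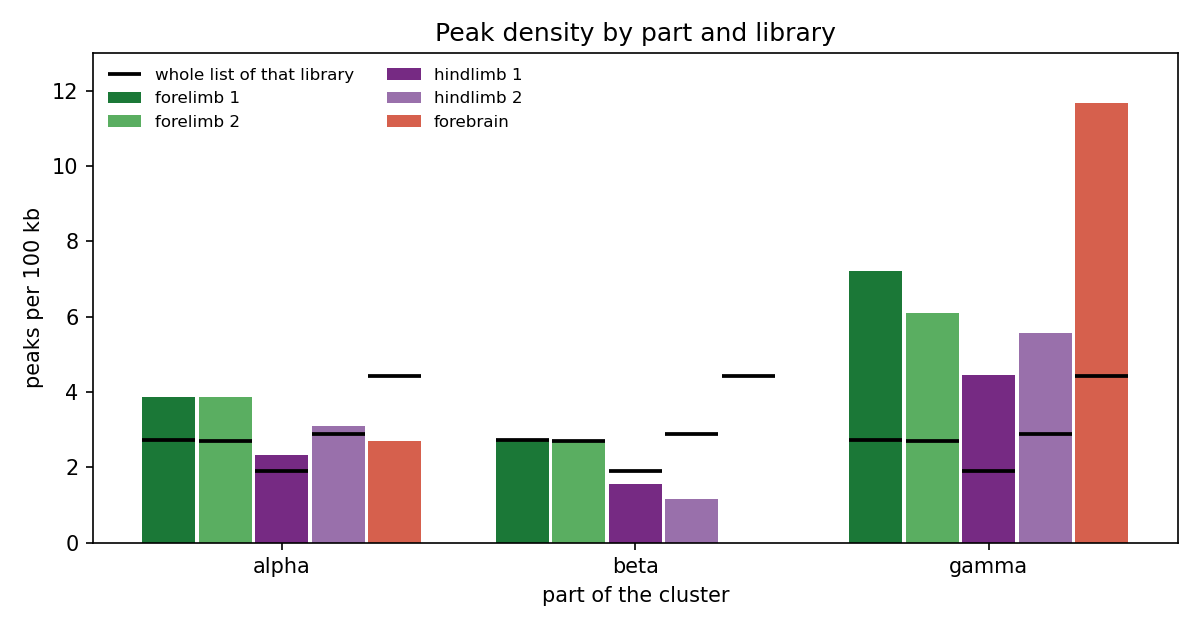
Peaks per 100 kb (y axis, from 0) in the alpha, beta and gamma parts (x axis) for each library, with 1 bar per library and a black line at the density of that library's whole list. The beta part has no forebrain bar, and all 5 gamma bars stand above their line.

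**Figure D2:**
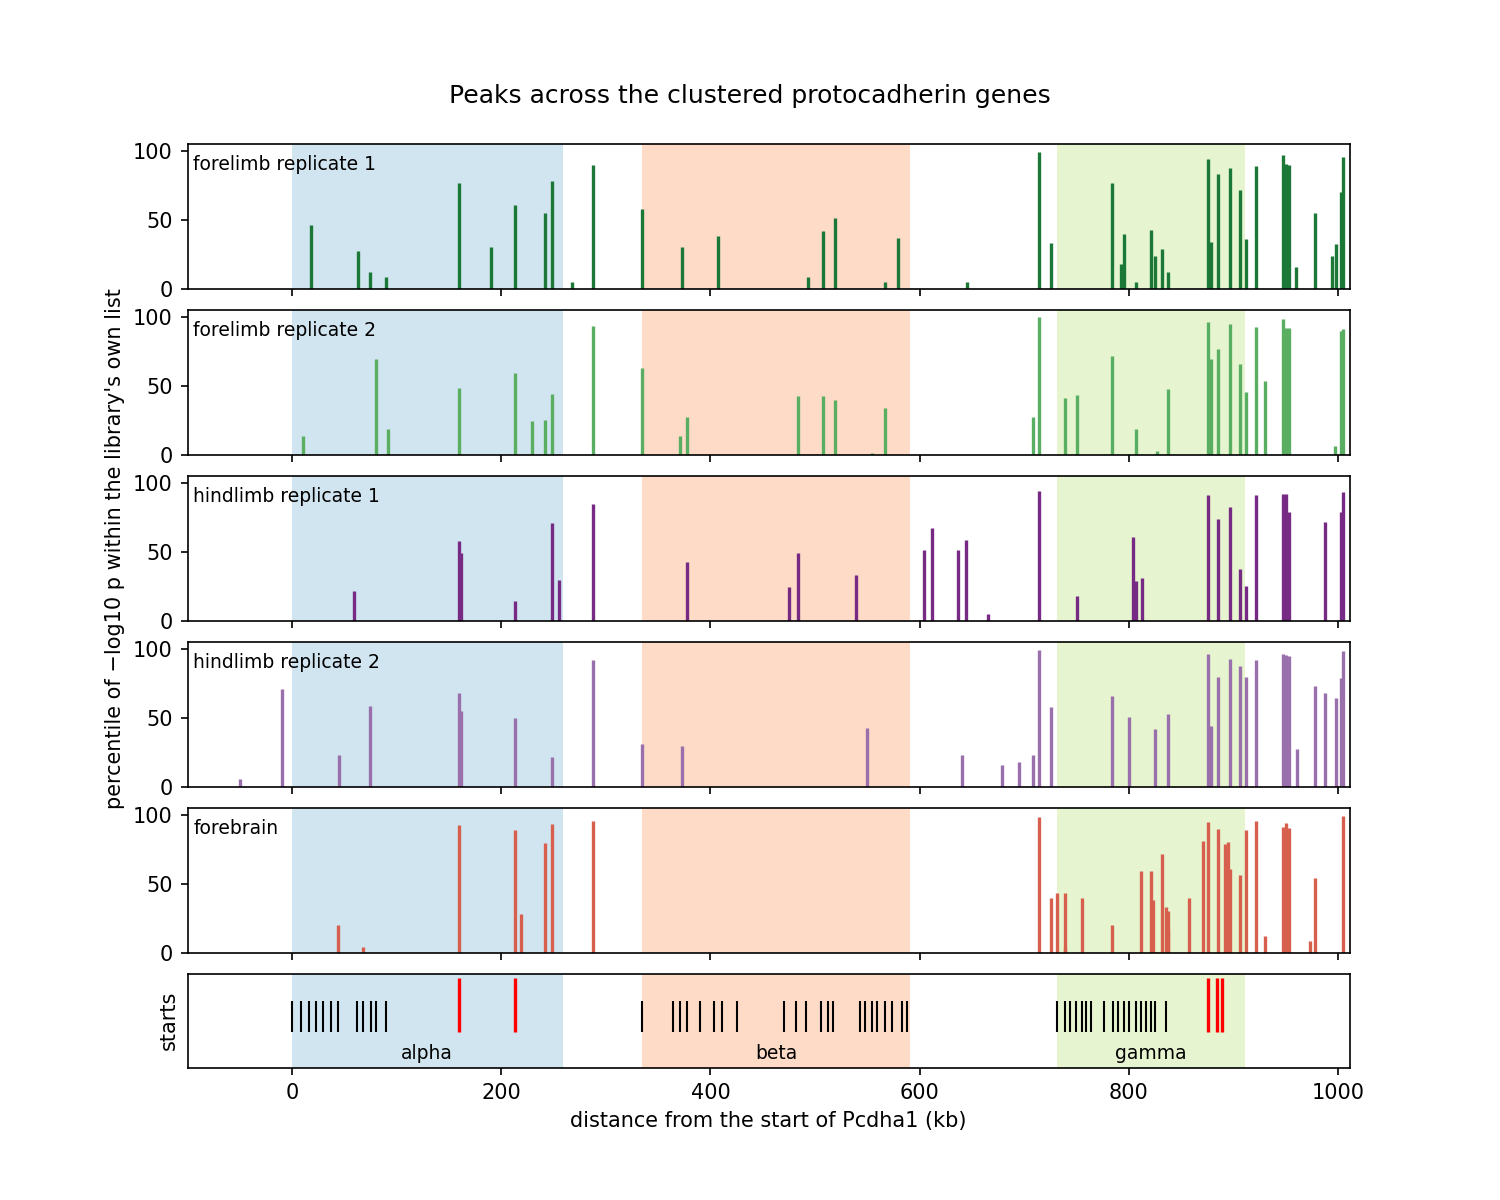
Peaks along the window (x axis, kb from the start of Pcdha1), with 1 vertical line per region, drawn at the region's strongest summit and as high as the library's percentile of −log10 p within its own list (y axis). Shading marks the alpha, beta and gamma parts, and the bottom row marks gene starts, C-type genes in red. Forebrain is empty over the beta part, its tallest line in the alpha part stands past the start of Pcdhac2, and that in the gamma part stands at Pcdhgc3.

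Starts were compared gene by gene. A gene was said to have a start peak when a summit lay within 1 kb of its variable exon's outer end, the end of lower coordinate. The annotation used gives no strand on this chromosome, and the lower end is the one that differs among alpha and among gamma genes. In forelimb replicates 1 and 2, 14 and 14 of the 57 genes had a start peak. Hindlimb replicates 1 and 2 had 7 and 9 such genes and forebrain 14. As background, start peaks were found for 57.2%, 54.7%, 49.4%, 56.7% and 60.7% of 17492 genes of other chromosomes with known strand, in the same order of libraries. In each library the clustered protocadherins thus had start peaks at less than the background rate, at 24.6%, 24.6%, 12.3%, 15.8% and 24.6%. No library had a start peak for 30 of the 57 genes, or 52.6%, where the background was 32.9%. Paralogous exons of this family are alike in sequence. How reads with several matches were treated was not stated, so a missing peak means only that none was called.

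C-type genes accounted for all start peaks shared by every library. Of the 5, Pcdhac1, Pcdhac2, Pcdhgc3 and Pcdhgc4 had a start peak in all 5 libraries. These 4 are 7.02% of the 57 members, against a background of 44.9%, and none of the 52 other genes did so. Counting only peaks with a −log10 q of at least 5, the C-type count was 2 in hindlimb replicate 1, the shortest list, and 4 in each other library. With hindlimb replicate 1 left out, Pcdhga7 joined them, so that 5 members had a start peak in every remaining library. When only summits within 500 bp of a start counted, 3 members had a start peak in all libraries. Pcdhac2 then dropped out, as its summit in hindlimb replicate 1 lay 599 bp from the start.

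Pcdhgc3 had the strongest start peak of the family. Its summits held 88 and 106 reads in forelimb, 59 and 165 in hindlimb, with 230 in forebrain. The fold was 9.59, 10.6, 6.06, 12.4 and 12.2 in the same order, and the percentile within each list lay between 91.0 and 96.4. The strongest summit of each library lay 71 to 90 bp before the annotated start, in the region 37805919 to 37807350. Hindlimb replicate 2 had a weaker peak as well, 627 bp inside the gene. Pcdhgc4 had 42 and 42 reads in forelimb, 33 and 58 in hindlimb, with 144 in forebrain, at percentiles 83.6, 77.0, 73.7, 79.8 and 89.7. These summits lay 279 to 294 bp inside the gene, within 37814294 to 37815578. The strongest summits of Pcdhgc3 spread over 19 bp and those of Pcdhgc4 over 15 bp, ectoderm and forebrain together.

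The alpha C-type starts were ranked lower in the ectoderm lists than in the forebrain list. Pcdhac1 had 32 and 21 reads in forelimb, 20 and 32 in hindlimb, with 146 in forebrain, where its fold was 15.5. Its percentiles were 76.7 and 48.8 in forelimb, 57.7 and 68.3 in hindlimb, with 92.6 in forebrain, with summits 81 to 185 bp before the start. Pcdhac2 had 26 and 31 reads in forelimb, 17 and 28 in hindlimb, with 135 in forebrain. Its percentiles were 60.7 and 59.6, 14.8 and 50.1, and 88.8. Here the strongest summit of each library lay 172 to 904 bp inside the gene, in a region of 1463 bp (37143306 to 37144768). Some libraries had several peaks there, so the summit given depends on which peak ranked first. In forelimb replicate 1 summits lay at 157 and 782 bp from the start, and in forelimb replicate 2 at -257, 172 and 893 bp. Those of hindlimb replicate 2 lay at -153, 281 and 904 bp. Both alpha genes stood at a higher percentile in forebrain than in any ectoderm library, but ranks of lists of different length show no change.

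Pcdhgc5 stood apart from the other C-type genes. No library had a peak within 1 kb of its start, and the nearest region, 3095 bp past the start, was called in forebrain alone. It was named after its values were seen.

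**Figure D3:**
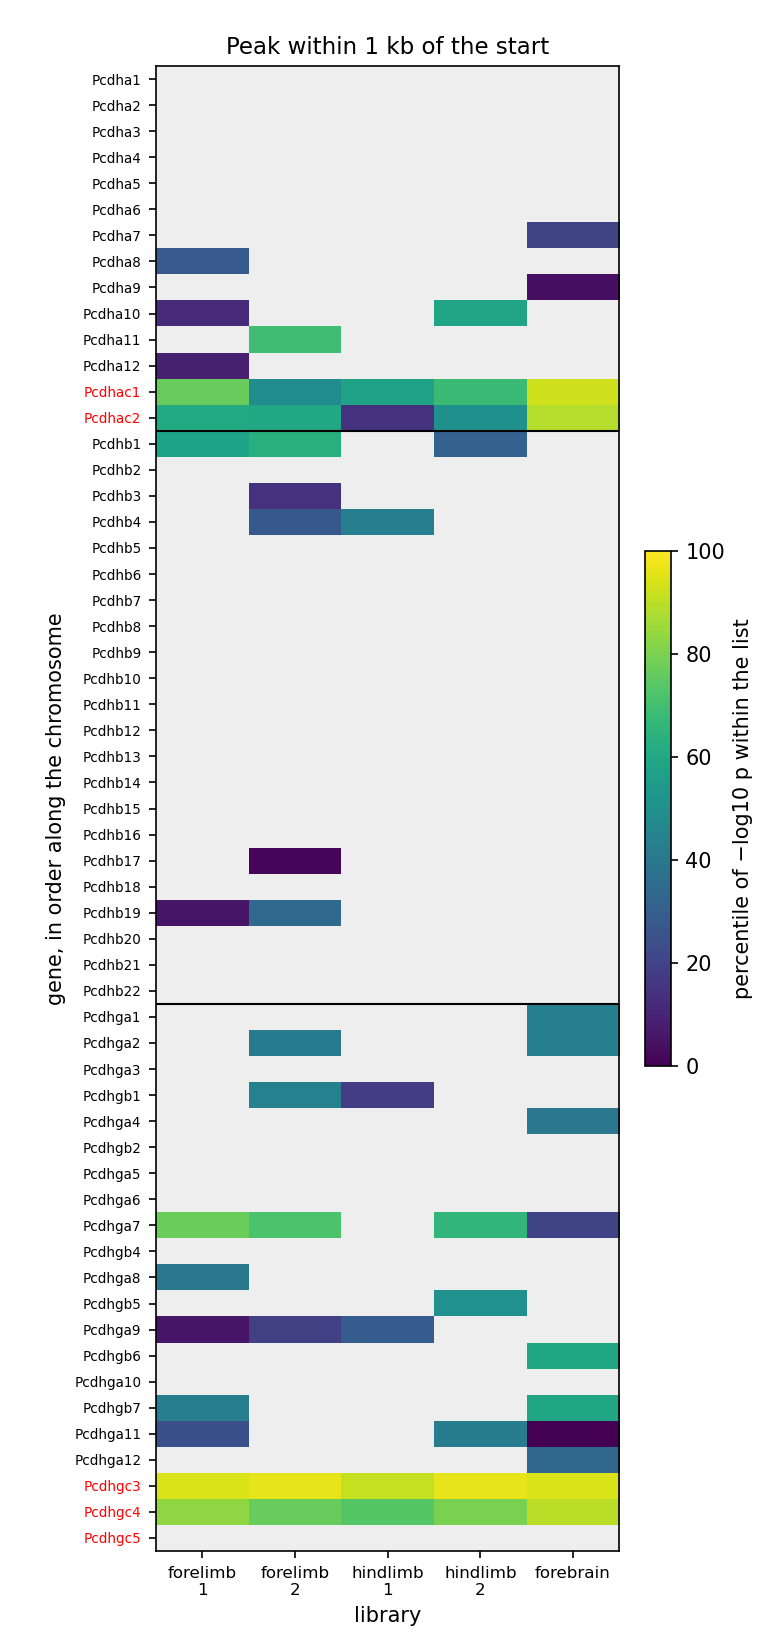
Start peaks of the 57 genes (rows, in chromosome order, C-type genes in red) in the 5 libraries (columns), coloured by the percentile of −log10 p within the library's own list; grey means that no summit lay within 1 kb. Filled rows across all 5 columns are Pcdhac1, Pcdhac2, Pcdhgc3 and Pcdhgc4, and the forebrain column is grey over all 22 beta genes.

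The 52 alternate and beta starts were marked sparsely, most of them in no library or in 1. In forelimb replicates 1 and 2, 10 and 10 of them had a start peak, in hindlimb 3 and 5, and in forebrain 10. Of the 23 genes concerned, 13 had a peak in 1 library only, and 10 in 2 or more. The summits held 11 to 27 reads in forelimb replicate 1, 12 to 27 in forelimb replicate 2, 16 to 18 in hindlimb replicate 1, 19 to 30 in hindlimb replicate 2 and 13 to 33 in forebrain. At the C-type starts the ranges were 26 to 88, 21 to 106, 17 to 59, 28 to 165 and 135 to 230. The ranges of the groups overlapped in each ectoderm library and lay apart in forebrain.

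**Figure D4:**
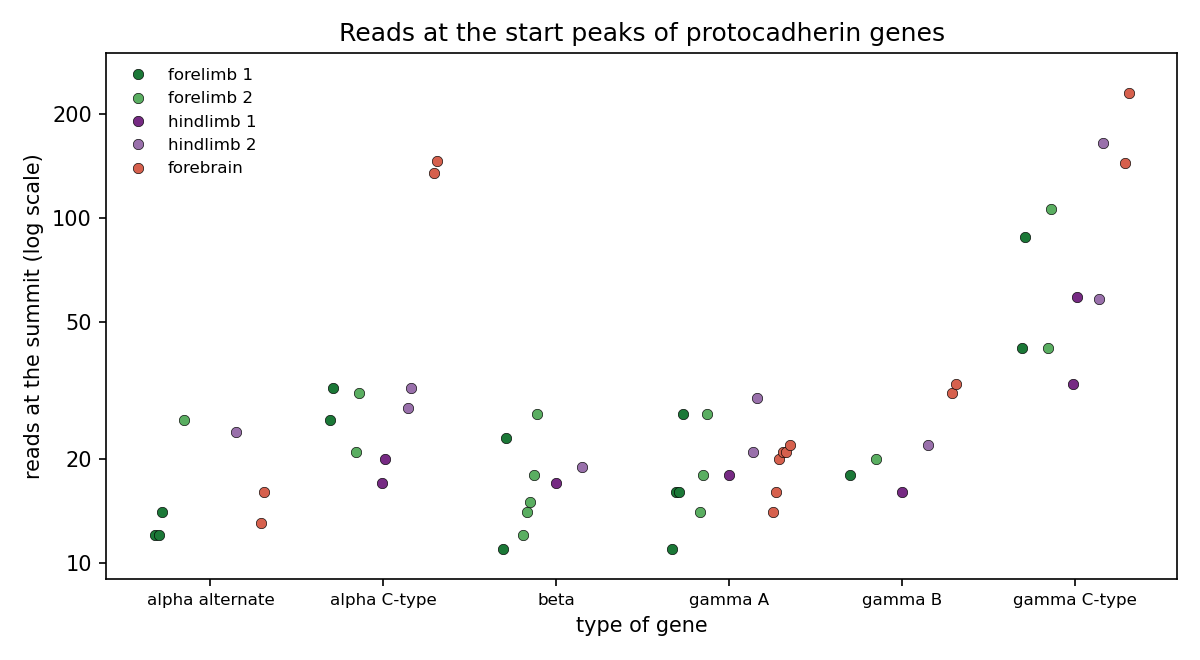
Reads at the summit of each start peak (y axis, log scale) by type of gene (x axis), 1 point per gene and library, coloured by library; genes without a start peak are not shown. Forebrain points at C-type genes lie at 135 to 230 reads and all other forebrain points at 13 to 33.

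Among the 12 alternate alpha genes start peaks were sparse, with 6 genes marked in any library and 5 of these in 1 library only. Pcdha10 had a start peak in forelimb replicate 1 with 12 reads and in hindlimb replicate 2 with 24, and not in the other libraries. Pcdha8, Pcdha11 and Pcdha12 each had one in a single forelimb library, and Pcdha7 and Pcdha9 in forebrain only, with 16 and 13 reads (chosen after their values were seen). The first 6 genes, Pcdha1 to Pcdha6, had none in any library. None of the 12 had a start peak in both tissues, where 56.9% of background genes did, but background genes also had start peaks more often in each library. With so few starts marked, no difference between the tissues can be read from this. With lists of equal length, or with a −log10 q of at least 5, forebrain had 0 alternate alpha start peaks.

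For the 22 beta genes the start peaks were 2 and 5 in forelimb, 1 and 1 in hindlimb, with 0 in forebrain. Pcdhb1, the first of the group, had 23 and 27 reads in forelimb and 19 in hindlimb replicate 2, with no peak in hindlimb replicate 1 or forebrain. Its forelimb summits lay 60 and 61 bp before the start, so that its region, 37264753 to 37265294, counts with the gap between alpha and beta. Pcdhb4 had 15 reads in forelimb replicate 2 and 17 in hindlimb replicate 1. Pcdhb19 had 11 and 18 reads in the forelimb libraries and none called in hindlimb or forebrain. Pcdhb3 and Pcdhb17 had a start peak in forelimb replicate 2 only (chosen after their values were seen). These 5 genes made up all beta genes with a start peak, and 17 had none. With a −log10 q of at least 5, 1 beta start peak was left in each forelimb library and 0 in hindlimb.

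Most beta regions lay away from starts. The beta part held 15 regions, all of them in ectoderm alone and without the one at Pcdhb1, and 10 were called in 1 library and 5 in 2. Their folds were 2.5 to 4.39, their reads 11 to 20 and their percentiles 1.71 to 51.3, so that no beta region reached the 75th percentile of its list. Of the 15 summits, 4 lay within 1 kb of a start, 7 lay 1.5 to 2.5 kb past one, and 4 elsewhere. That distance was set after the values were seen. The highest by the mean percentile over the ectoderm libraries were 37413946 to 37414218, 2372 bp past the start of Pcdhb10, with 18 reads in forelimb replicate 2 and 19 in hindlimb replicate 1, and 37449718 to 37450148, 2206 bp past that of Pcdhb14, with 17 and 18 reads in the forelimb libraries. Next came 37437381 to 37437596, at Pcdhb12, with 18 reads in forelimb replicate 2. Counting a summit within 2.5 kb of a start gave 6 and 8 beta genes in forelimb, 2 and 3 in hindlimb and still 0 in forebrain.

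Gamma A and B genes, which alternate along the chromosome, had the most forebrain start peaks of the alternate types. Of the 18, 8 had one in forebrain, against 5 and 4 in forelimb and 2 and 3 in hindlimb. With lists of equal length forebrain had 2, and the ectoderm libraries had 3, 3, 2 and 3. Pcdhga7 was the most often marked, with 27 and 27 reads in forelimb, 30 in hindlimb replicate 2 and 16 in forebrain, and no peak in hindlimb replicate 1. Its summits lay 81 to 99 bp before the start, and its percentiles were 77.1, 71.7, 65.6 and 20.4. Pcdhga9 had 11 and 14 reads in forelimb and 18 in hindlimb replicate 1, with none in hindlimb replicate 2 or forebrain.

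Other gamma starts were shared between single libraries. Pcdhgb1 had 20 reads in forelimb replicate 2 and 16 in hindlimb replicate 1. Pcdhga2 had 18 reads in forelimb replicate 2 and 21 in forebrain, at summits 406 bp inside and 28 bp before the start. Forebrain had a weaker peak there as well, 433 bp inside, with 13 reads. Pcdhgb7 had 18 reads in forelimb replicate 1 and 33 in forebrain, and Pcdhga11 had 16 in forelimb replicate 1, 21 in hindlimb replicate 2 and 14 in forebrain. Forebrain but no ectoderm library had a start peak at Pcdhga1, Pcdhga4, Pcdhgb6 and Pcdhga12, with 21, 20, 31 and 22 reads (chosen after their values were seen). Pcdhga8 had 16 reads in forelimb replicate 1 and Pcdhgb5 had 22 in hindlimb replicate 2, each in that library only, and were chosen in the same way. Pcdhga1, Pcdhga4, Pcdhgb6, Pcdhga12, Pcdha7 and Pcdha9 were the 6 members marked in that way, 10.5% of 57, where the background was 3.77%. Another 13 members, 22.8%, had a start peak in at least 1 ectoderm library and none in forebrain, where the background was 6.37%. With lists of equal length the 6 became 1 and the 13 became 12, and with a −log10 q of at least 5 they became 5 and 6. The background was not recomputed under these settings, so these counts have no share to be set against.

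Strong regions also lay away from starts. Between the alpha and beta groups, the region 37217115 to 37218561 was called in all 5 libraries. It had 53 and 68 reads in forelimb, 32 and 81 in hindlimb, with 282 in forebrain, at percentiles 89.9, 93.6, 84.6, 92.1 and 95.7. Its fold was 9.38 and 11.3 in forelimb, 6.15 and 14.2 in hindlimb, with 13.8 in forebrain. Its strongest summit lay at -46676 bp from the start of Pcdhb1. The only other regions of that gap were the one at Pcdhb1 and 37197698 to 37197944, which was called in forelimb replicate 1 only, at percentile 5.56.

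Past the start of Pcdhac2, toward the constant exons of the alpha genes, a pair of regions were called in both tissues. The region 37178114 to 37178960, 34840 bp past the start, had 31 and 22 reads in forelimb, 24 and 17 in hindlimb, with 178 in forebrain, at percentiles 78.4, 44.6, 71.1, 22.0 and 92.9. The region 37172223 to 37172952 had 18 and 19 reads in forelimb and 58 in forebrain, and none called in hindlimb. Those were among the highest alpha peaks of forebrain, beside the Pcdhac1 and Pcdhac2 starts. In ectoderm the highest mean percentile of the alpha part belonged to 37010543 to 37010763 at Pcdha11, which rests on forelimb replicate 2 alone with 26 reads.

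The stretch past Pcdhgc5 held adjacent regions of different kinds. The region 37826239 to 37826920, 7157 bp past the start, was called in all 5 libraries, with 57 and 89 reads in forelimb, 41 and 108 in hindlimb, with 65 in forebrain. Its percentiles were 87.7 and 94.5, 82.4 and 92.2, and 60.8. Just before it lay 37822465 to 37822816, 37824184 to 37824700 and 37824907 to 37825572, with 101, 54 and 103 reads in forebrain and no peak in ectoderm. At -5409 bp from the start of Pcdhgc3, 37800797 to 37801179 likewise had 61 reads in forebrain, at percentile 81.1, and no ectoderm peak. The region 37835542 to 37836887 was called in every library, with 35 and 31 reads in forelimb, 25 and 82 in hindlimb, with 41 in forebrain. At the shared end of the gamma genes, 37841418 to 37842916 was also called in every library, at percentiles 36.0 and 45.9 in forelimb, 25.7 and 79.9 in hindlimb, with 88.6 in forebrain.

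By classes of regions, the window held 17 found in forebrain but no ectoderm library, which is 16.8% of its 101 regions against a background of 33.1%. Of these, 12 lay in the gamma part, 38.7% of its 31 regions, 3 in the alpha part, 15.0% of 20, and 0 of 15 in the beta part. With lists of equal length the window held 5 and the gamma part 5 of them, for which no background was computed. Regions called in every library numbered 15, or 14.9%, against a background of 6.72%, with 3 in alpha, 0 in beta and 4 in gamma. Another 6 lay in the flank past the gamma genes, mostly inside Diaph1, and 1 in each gap, that between beta and gamma at Taf7. Without the flanks there were 9, and with a −log10 q of at least 5 the alpha part had 0. Regions in at least 1 ectoderm library and not in forebrain made up 60, or 59.4%, against 48.2%. In the beta part they were all 15, in alpha 13 of 20 and in gamma 10 of 31. Regions seen in a single library made up 60.4% of the window, against 71.1% of all regions.

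Only 1 region was called in every ectoderm library but not in forebrain (0.99%, background 2.33%), and it lay in no protocadherin gene. It was 37932988 to 37933455, inside Diaph1, a formin that nucleates actin filaments, with 43 and 74 reads in forelimb and 43 and 75 in hindlimb. Without hindlimb replicate 1 there were 3 such regions, and joining peaks only at 50% overlap also gave 3. No region with its strongest summit in the beta part was called in more than 2 ectoderm libraries, while the one at the start of Pcdhb1, just before that part, was called in 3.

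Forelimb and hindlimb ectoderm differed in calls at few regions of the window, though at shares above those of all regions. In both forelimb and neither hindlimb libraries, whatever forebrain held, there were 3 (2.97%, background 1.97%): 37172223 to 37172952 past Pcdhac2, 37449718 to 37450148 at Pcdhb14 and 37496938 to 37497402 at Pcdhb19. The reverse held for 2 (1.98%, background 0.655%). One was 37091943 to 37092226, 1922 bp past the start of Pcdhac1, with 19 and 26 reads in hindlimb, and the other was 37918081 to 37918390 in Diaph1, with 24 and 29. With a −log10 q of at least 5, 1 of each kind was left, and leaving out forelimb replicate 1 or 2 gave 14 and 19 forelimb regions, as then 1 library is enough. With 2 libraries a limb the smallest two-sided p of an exact permutation test is 0.333, so no test was made. For 4 ectoderm libraries against 1 of forebrain it is 0.2.

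Peaks at neighbouring genes of the same window are given for comparison. Taf7, a subunit of the general transcription factor TFIID, lies between the beta and gamma groups. Its region, 37643722 to 37644645, was the strongest between those groups, with 188 and 202 reads in forelimb, 67 and 235 in hindlimb, with 365 in forebrain, at percentiles 94.2 to 99.6. The region 37934855 to 37935845 at an end of Diaph1 had 113 and 76, 74 and 216, and 607 reads. Inside Diaph1, 37851984 to 37852883, 37877115 to 37877648, 37879851 to 37880573 and 37883458 to 37883865 were also called in every library, at percentiles 78.9 to 98.2. They lie past the gamma genes, where the control region for the beta genes is known. Whether any of them belongs to it was not tested, so they are no reference independent of the cluster. Slc25a2, a mitochondrial carrier gene next to Taf7, had a weak peak in forelimb replicate 2 and hindlimb replicate 2 only. The gap between the beta and gamma groups held 14 regions, of which 6 were called in hindlimb replicate 1 alone, among them 37542391 to 37542617 and 37574424 to 37574623 at percentiles 67.6 and 58.4. Forebrain had 3 peaks there, at Taf7, at Pcdhga1 and in 37655520 to 37656081 with 20 reads, which forelimb replicate 1 and hindlimb replicate 2 shared with 17 and 26.

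Protocadherins outside the cluster were mostly marked in every library, by a peak at either end, a wider measure than the start peak used for the cluster. A peak at either end was found for 9, 9, 8, 9 and 10 of 12 genes in the forelimb, hindlimb and forebrain libraries, where the shares over all genes were 59.8%, 57.3%, 51.2%, 59.3% and 63.8%. Of the 12, 8 had one in every library (background 45.8%), among them Pcdh17 at percentiles 97.7 to 99.2 and Pcdh10 at 92.3 to 98.2. Pcdh15, an inner-ear and retinal protocadherin, was the 1 gene of 12 with one in forebrain only (background 3.92%), at percentile 66.1, and 0 of 12 had one in every ectoderm library but not forebrain (background 0.74%). Neither Pcdh9 nor Pcdh12 had a peak. Pcdh11x had one in 3 ectoderm libraries at percentiles 41.0 to 51.7 and in forebrain at 90.9. Genes of the machinery that acts on protocadherin promoters, namely CTCF, cohesin, its loaders and methylation factors, counted 15, 14, 14, 13 and 14 of 20. Among these 13 had a peak in every library, Ctcf, Smchd1 and Dnmt3b included, and none had one in forebrain alone. The cohesin subunit gene Rad21, the loader gene Nipbl, the cohesin release gene Wapl and the DNA methyltransferase gene Dnmt3a had none at either end in any library. Dnmt1 and Stag1 had one in a single forelimb library each, and Ehmt2 in 2 ectoderm libraries and forebrain. For both lists only the outer annotated ends of each gene were searched. A gene without a peak there may have one further inside, so its promoter is not shown to be closed.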

How the data were processed

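The deposited files are 1 peak list per library (2 of forelimb, 2 of hindlimb ectoderm, 1 of forebrain). Per the submitters' processing notes, MACS2 2.1.1.20160309, Bowtie2 2.3.5 and cutadapt 1.16 were used with mm10, along with bedtools and Picard; roles, and the treatment of reads with several matches, were not stated. The authors' values are a fold enrichment ratio, −log10 p, −log10 q and a score, which was not used, and each deposited fold, −log10 and score belongs to its own list.

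Only chromosomes 1 to 19, X and Y entered, and an interval with several summits was 1 peak, held by its strongest summit. Peaks overlapping by 1 bp were merged to regions across libraries, placed by the summit of highest percentile. Reads at a summit were solved from each peak's fold and p by a Poisson model, within 0.01 in −log10 p, or 0.2% of it where that was larger, for 100% of peaks. Whole-list density used the chromosomes up to the last peak in any list. Analysis used Python 3.11.15, pandas 2.3.3 and scipy 1.17.1, and was tested on simulated peaks. Strand for background genes came from RefSeq. No p-value was computed.

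Members and lists were chosen with earlier results of these data known. Named were genes with a start peak in 2 or more libraries, regions found in 1 limb or in ectoderm only, and the 3 highest regions of each part by percentile in forebrain and by mean in ectoderm. Alternatives were a −log10 q of 5 or more, equal list lengths, each summit counted, 50% overlap, no flank, start distances of 500 bp and 2.5 kb, leaving out each ectoderm replicate, and, chosen after seeing the data, parts that begin 1 kb earlier.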

Additional observations from a re-analysis of the deposited data

How the results depend on the processing

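Depth is known only through the lists, so a missing peak is not a closed site, and most values below rest on summits of few reads. No paired analysis was possible because no result comes from a test. Of 414 values recomputed for 69 results, 319 stayed within 1.5 times the count or 1 SD of the median percentile over ectoderm libraries, and 95 moved; the cause was not tested. The 0 forebrain peaks in the beta part held in every setting that applied. A stricter q and equal list lengths only remove peaks, so under these settings that count could not have changed. Leaving out the flanks likewise cannot change any value of the alpha, beta or gamma part. Such fixed values, and counts of 0 that stayed 0, are among the 319, so that number is no measure of robustness. Parts that begin 1 kb earlier, and starts within 500 bp, moved no result past those limits. Within them, starts within 500 bp lowered C-type start peaks in hindlimb 1 from 4 to 3. Members with a start peak in all libraries likewise fell from 4 to 3. Percentiles below were ranked anew within each changed list. A lower median after weak peaks were removed is thus a rank among the stronger peaks left, on another scale than the full list. Background shares were computed for the full lists only. In the order forelimb 1 and 2, hindlimb 1 and 2 and forebrain, where all are given, the values were as follows.

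At a −log10 q of 5 or more, alpha peaks were 6, 4, 1, 5 and 4, with median percentiles 24.3, 17.2, 25.3, 27.6 and 85.8. Beta peaks were 1, 0, 0, 1 and 0, with medians 12.5 in forelimb 1 and 7.53 in hindlimb 2. Gamma peaks were 5, 7, 3, 9 and 15, with medians 70.5, 48.9, 54.5, 44.8 and 37.6, and window peaks 23, 22, 14, 29 and 30. Start peaks of C-type genes were 2 in hindlimb 1. Those of alternate alpha genes were 0, 1, 0, 1 and 0, of beta genes 1, 1, 0, 0 and 0, and of gamma A and B genes 1, 1, 0, 3 and 5. Forebrain regions without ectoderm and regions in all libraries were both 0 in alpha, and forelimb and hindlimb regions were 1 each. Members with a start peak in all libraries were 2, and in ectoderm without forebrain 6.

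With lists of equal length, alpha peaks were 7, 6, 6, 5 and 4, with medians 35.5, 25.3, 39.3, 31.7 and 78.4. Beta peaks were 5, 4, 4, 1 and 0, with medians 12.1, 16.2, 38.1 and 12.7. Gamma peaks were 8, 9, 8, 9 and 9, with a median of 63.6 in forelimb 1, and forebrain had 21 window peaks. Start peaks of alternate alpha genes were 0 in forelimb 1 and forebrain, of beta genes 1, 2, 1, 0 and 0, and of gamma A and B genes 3, 3, 2, 3 and 2. Ectoderm regions without forebrain were 2 in the window, and forebrain regions without ectoderm were 5 in the window, 5 in gamma and 0 in alpha. Members with a start peak in forebrain and not ectoderm were 1.

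With each summit counted, alpha peaks in forebrain were 12, alpha medians were 33.4 in forelimb 2, 38.1 in hindlimb 2 and 73.2 in forebrain, and the gamma median in hindlimb 1 was 37.0. Forebrain regions without ectoderm were 27 in the window and 20 in gamma. At 50% overlap ectoderm regions without forebrain were 3, and regions in all libraries were 2 in gamma. Without the flanks these were 0 in the window and 9, and hindlimb regions were 1. Starts within 2.5 kb gave 3 and 2 alternate alpha genes in forelimb 2 and hindlimb 2, 6, 8, 2 and 3 beta genes in the ectoderm libraries, and 21 members in ectoderm without forebrain. Leaving out 1 replicate gave 1 to 3 ectoderm regions without forebrain, 3 in the absence of hindlimb replicate 1 and 2 in that of hindlimb replicate 2. It gave 2 to 19 forelimb or hindlimb regions: forelimb regions were 14, 19, 4 and 7 without forelimb replicates 1 and 2 and hindlimb replicates 1 and 2, and hindlimb regions 2, 2, 11 and 14. All other leave-out values stayed within 1.5 times.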
